A study of Mus musculus with 33 samples.

Results

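Oct4 sites that disappeared from the Uhrf1 knockout (KO) list while a neighbouring Sox2 or Nanog summit stayed were taken from ChIP-seq lists. ChIP-seq pulls down fragments of chromatin with an antibody to a protein or histone mark and reads their DNA. A site here is a summit, the base at which the reads of an Oct4 peak pile highest in wild type (WT) mouse embryonic stem cells (mESCs). Of 12898 WT Oct4 summits, 12654 (98.1%) had no KO Oct4 summit within 100 bp, and 1806 of these met the rule and are called kept-partner sites. The rule asked for a KO Sox2 or Nanog summit within 100 bp that itself had a WT summit of the same factor within 100 bp, and for no KO-specific Sox2 or Nanog summit there. The sites were therefore selected on the measured Oct4, Sox2 and Nanog lists, and their presence and heights in those lists are descriptions without a test. The other WT Oct4 sites comprised 244 that kept Oct4, 4664 called replaced sites, where a KO-specific Sox2 or Nanog summit lay within 100 bp, and 6184 called bare lost sites, with no KO summit of any of the 3 factors. Kept-partner sites were 14% of all WT Oct4 sites and 22.6% (95% Wilson interval 21.7 to 23.5) of the 7990 sites at which Oct4 was lost without replacement.

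The groups were E14 mESCs, WT or Uhrf1 KO, kept undifferentiated in serum with leukemia inhibitory factor on gelatin or on mouse embryonic fibroblasts, and the embryoid bodies (EBs) made from each genotype and sampled at weeks 1, 2 and 3. EBs are aggregates in which stem cells differentiate, and the labels name the KO only as Uhrf1 KO, without the allele. Of 33 samples, 17 were WT and 16 Uhrf1 KO, with 1 library per group, so no difference below has a replicate check and every interval covers counting error over sites only. The KO Oct4 list held 576 summits, the KO Sox2 list 20755 against 5190 in WT, and the KO Nanog list 10632 against 2390 in WT. A lost site is one absent from that short KO Oct4 list, and a weaker KO enrichment and the absence of Oct4 cannot be told apart from it. As a check of the cell type, the starts of Pou5f1 (which encodes Oct4), Nanog and Zfp42, markers of pluripotent cells, lay in H3K4me3 domains in both genotypes. The start of Sox2 lay in such a domain in WT only and that of Esrrb in neither list. The start of Uhrf1 was in a domain in both genotypes, which does not check the knockout.

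Oct4 (a POU factor) and Sox2 (an HMG-box factor) bind side by side on a composite DNA element, and together with the homeodomain factor Nanog they occupy enhancers that keep stem cells pluripotent. Uhrf1 recognises hemimethylated DNA and methylated histone H3 and recruits the maintenance DNA methyltransferase Dnmt1. H3K4me3 marks active and poised promoters, H3K27me3 is deposited by Polycomb at repressed developmental genes, promoters with both marks are called bivalent, and H3K9me3 marks heterochromatin. The sites described here are those where the summit of one member of this factor trio vanished and that of a partner remained.

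The sequences at some of the tallest sites of each kind show how much these sites vary. Each is the 101 bases centred on the WT Oct4 summit in mm9 (NCBIM37), plus strand, with capitals for a match on either strand to the Oct-Sox composite, or failing that to the octamer, or failing that to the Sox motif. The octamer was ATGCAAAT, the Sox motif CATTGT or CTTTGT, and the composite a Sox motif, any base and then the octamer, with at most 2 mismatches in its 14 fixed letters. Among sites that kept Sox2 alone, the 3 tallest had WT Oct4 heights of 147, 144 and 143 reads. The first lay at chr2:104060389-104060489 in an intron of D430041D05Rik with A930018P22Rik as the nearest start, the second at chr3:18524086-18524186, intergenic and far upstream of Cyp7b1, and the third at chr6:49186483-49186583, intergenic and 21580 bp upstream of Igf2bp3. Among sites that kept Nanog alone, the 2 tallest had heights of 143 and 142. They lay at chr11:108873223-108873323, 91610 bp past the start of Axin2, and at chr1:59433442-59433542, 105499 bp upstream of Fzd7, both intergenic. Among sites that kept both factors, 2 of the 3 tallest had heights of 154 and 153. They lay at chr17:6478701-6478801 in an intron of Tmem181b-ps and at chr17:6267670-6267770, 2755 bp upstream of Tmem181a.
A930018P22Rik: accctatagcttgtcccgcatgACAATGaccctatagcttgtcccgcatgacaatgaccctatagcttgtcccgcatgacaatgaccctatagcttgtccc
Cyp7b1: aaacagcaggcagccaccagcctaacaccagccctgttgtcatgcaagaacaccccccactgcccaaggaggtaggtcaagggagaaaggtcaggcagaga
Igf2bp3: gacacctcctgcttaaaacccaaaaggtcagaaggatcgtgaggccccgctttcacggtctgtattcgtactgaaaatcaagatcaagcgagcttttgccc
Axin2: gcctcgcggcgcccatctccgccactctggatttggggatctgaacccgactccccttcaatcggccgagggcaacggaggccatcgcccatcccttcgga
Fzd7: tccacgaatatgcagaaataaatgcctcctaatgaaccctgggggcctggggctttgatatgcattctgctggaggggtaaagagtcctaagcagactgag
Tmem181b-ps: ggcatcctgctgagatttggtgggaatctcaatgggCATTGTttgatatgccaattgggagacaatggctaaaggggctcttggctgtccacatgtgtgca
Tmem181a: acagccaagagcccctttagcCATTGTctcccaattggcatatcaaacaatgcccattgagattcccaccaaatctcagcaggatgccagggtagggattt

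The window near A930018P22Rik is a tandem repeat. Its central 31 bases occurred 4 times in the assembled chromosomes, those of the Igf2bp3 site 4 times, and those of the Tmem181a and Tmem181b-ps sites 2 times each. The Tmem181a and Tmem181b-ps windows hold the same sequence on opposite strands, shifted by some bases, so they are not independent examples. The Cyp7b1, Axin2 and Fzd7 sites had 1 exact copy each there. Inexact copies and sequence outside the assembled chromosomes were not counted, so 1 copy does not show that a site is unique in the genome. None of these windows held a composite match, and a KO Oct4 summit lay 105 bp from the Axin2 site, just outside the distance of the rule.

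The elements that the Oct4-Sox2 pair binds were clearest at a different set of sites, and these windows are shown because they hold the 4 kept-partner composites without a mismatch and the 6 composites found at the tallest site of a listed gene, picked after their values were seen. The 4 exact composites had WT Oct4 heights of 89, 74, 62 and 48. They lay at chr13:57464079-57464179 (nearest start Trpc7, intergenic), at chr11:44655337-44655437 in an intron of Ebf1, at chr5:131653184-131653284 in an intron of Wbscr17 and at chr5:28558781-28558881 in an intron of Cnpy1. The next 6 had 1 or 2 mismatches. They lay at chr1:182863957-182864057, 1146 bp upstream of Lefty1, at chr1:182818922-182819022, 4267 bp upstream of Lefty2, at chr6:122574634-122574734, 1744 bp upstream of Dppa3, at chr11:52100034-52100134, 3403 bp upstream of Tcf7, at chr2:26359620-26359720 in an intron of Notch1, and at chr1:120544709-120544809 in an intron of Tfcp2l1. Each of these windows had 1 copy of their central 31 bases.
Trpc7: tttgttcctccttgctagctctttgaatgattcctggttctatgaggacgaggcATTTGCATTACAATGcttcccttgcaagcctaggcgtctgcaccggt
Ebf1: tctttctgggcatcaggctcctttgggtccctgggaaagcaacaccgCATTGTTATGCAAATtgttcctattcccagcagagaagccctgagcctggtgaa
Wbscr17: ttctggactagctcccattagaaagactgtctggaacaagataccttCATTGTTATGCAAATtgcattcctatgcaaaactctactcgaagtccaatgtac
Cnpy1: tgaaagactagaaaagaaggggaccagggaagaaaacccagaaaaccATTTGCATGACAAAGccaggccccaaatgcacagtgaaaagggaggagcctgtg
Lefty1: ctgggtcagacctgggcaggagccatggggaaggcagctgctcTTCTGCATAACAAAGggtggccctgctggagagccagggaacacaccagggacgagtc
Lefty2: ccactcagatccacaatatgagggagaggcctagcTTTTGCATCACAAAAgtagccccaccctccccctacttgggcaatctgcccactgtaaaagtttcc
Dppa3: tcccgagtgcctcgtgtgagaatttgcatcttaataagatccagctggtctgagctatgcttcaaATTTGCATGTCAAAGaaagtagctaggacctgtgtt
Tcf7: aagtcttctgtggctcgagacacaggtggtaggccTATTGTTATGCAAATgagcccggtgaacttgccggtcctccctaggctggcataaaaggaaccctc
Notch1: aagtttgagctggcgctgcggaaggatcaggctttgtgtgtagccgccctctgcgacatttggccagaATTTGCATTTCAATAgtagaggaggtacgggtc
Tfcp2l1: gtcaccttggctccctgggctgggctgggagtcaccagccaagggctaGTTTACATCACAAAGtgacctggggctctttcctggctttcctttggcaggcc

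At the Trpc7 site the Sox2 height was 47 in WT and 124 in KO, at the Ebf1 site 44 and 83, at the Wbscr17 site 22 and 42, and at the Cnpy1 site 23 and 29. Sox2 thus stood taller in KO at each of the 4 exact composites, of which 3 kept Sox2 alone and the Trpc7 site kept both factors. Over all 3352 Sox2 summits shared by WT and KO, 77.8% were taller in KO, so 4 of 4 is near the background. None of these 4 sites lay in an H3K4me3 domain in either genotype, where 55.8% of all kept-partner sites did in WT and 41.4% in KO.

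WT Oct4 was taller at kept-partner sites than at the other lost sites. The WT Oct4 height, the number of reads piled at the summit, had a median of 60 (quartiles 43 and 81, range 14 to 159) at kept-partner sites, 42 at replaced sites, 29 at bare lost sites and 97.5 at the 244 sites that kept Oct4. Within the kept-partner sites, 904 (50.1%) kept both Sox2 and Nanog, 728 (40.3%) kept Sox2 alone and 174 (9.63%) kept Nanog alone. The median WT Oct4 height was 71 where both stayed, 50 with Sox2 alone and 51 with Nanog alone. The ranges of the 3 kinds overlapped widely.

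**Figure D1:**
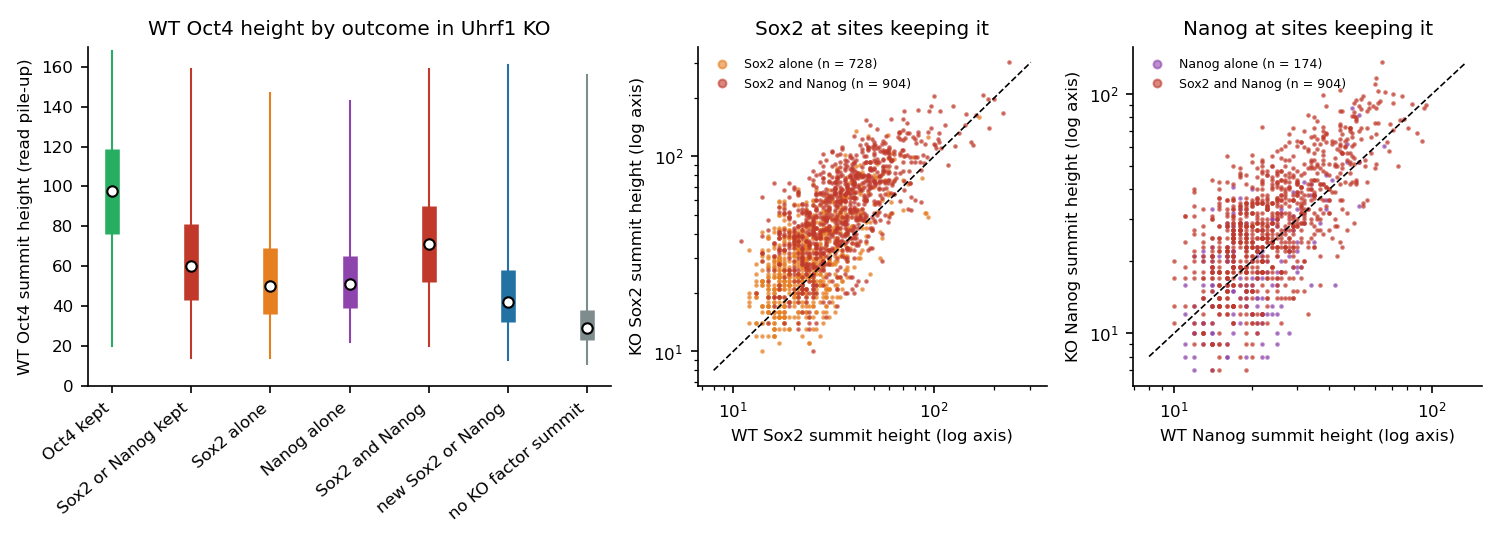
Left, WT Oct4 summit height in reads for sites that kept Oct4, all kept-partner sites, their 3 kinds, replaced sites and bare lost sites (circle, median; thick line, quartiles; thin line, range). Middle and right, KO against WT height of the Sox2 and Nanog summits kept at kept-partner sites, 1 point per site on log axes with a dashed line of equal height: 1269 of 1632 Sox2 points and 679 of 1078 Nanog points lie above it.

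The rule required each KO partner to have a WT summit of its factor, so the match of partners between genotypes was set by the selection and is a description. In WT, 980 of the 1806 sites had both a Sox2 and a Nanog summit within 100 bp of the Oct4 summit, 678 Sox2 alone, 106 Nanog alone and 42 neither. The WT partner of these 42 lay within 100 bp of the KO summit but more than 100 bp from Oct4. Of the 980, 858 still had both in KO, 57 kept Sox2 alone and 65 kept Nanog alone. Of the 678 with Sox2 alone, 636 remained Sox2 alone. KO partner summits lay close to the position Oct4 had held, at a median of 24.5 bp for Sox2 and 25.5 bp for Nanog, with 838 of 1632 Sox2 and 539 of 1078 Nanog summits within 25 bp. At the edge of the rule, 29 kept-partner sites had their nearest KO partner at 91 to 100 bp and a median WT Oct4 height of 37, and 123 bare lost sites had one at 101 to 110 bp and a median of 33. A KO Oct4 summit lay at 101 to 200 bp from 6 kept-partner sites, whose median height was 108.

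The kept Sox2 summits were taller in KO than in WT, and so were Sox2 summits elsewhere. At the 1632 sites with KO Sox2 the median height was 28 reads in WT and 41 in KO, with a median ratio of 1.42, against 1.4 at 1720 shared Sox2 summits away from kept-partner sites. Sox2 was taller in KO at 77.8% of kept-partner sites, and at 77.8% of all 3352 shared Sox2 summits, so the increase was not particular to them. The deposited heights are not scaled to sequencing depth, and the part of depth in these ratios was not tested. For Nanog the medians were 23 in WT and 27 in KO, with a ratio of 1.18 against 1.13 elsewhere, and 63.0% were taller in KO against 60.3% of all 1947 shared Nanog summits. Between the kinds, Sox2 was taller in KO at 84.4% of sites that kept both factors and 69.5% of sites that kept Sox2 alone. Nanog was taller in KO at 67.0% of sites that kept both and 42.0% (34.9 to 49.4) of those that kept Nanog alone, whose median Nanog height was 19.5 in WT and 18.5 in KO.

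H3K4me3 covered more of the kept-partner sites than of the other lost sites. In WT mESCs 55.8% of kept-partner sites lay in an H3K4me3 domain, against 44.6% of replaced sites (difference 11.2 points, 95% Newcombe interval 8.49 to 13.9) and 27.3% of bare lost sites (28.5 points, 26 to 31). The classes differed in WT Oct4 height, and within 5 groups of similar height the differences were 7.46 and 15.1 points, both with intervals above 0. The tallest group held 954 kept-partner sites of 58 to 159 reads, so heights in it were similar only in part. There 58.1% of kept-partner, 55.4% of replaced and 48.5% of bare lost sites were marked. In the lowest group, up to 25 reads, the shares were 69.8%, 48.9% and 21.8%. Most of the marked sites lay away from gene starts: 88.9% of the 1008 kept-partner sites in a domain lay over 1000 bp from every start of a protein-coding gene. The share was 86.1% of all WT Oct4 sites in WT domains, so it was not particular to kept-partner sites. Whether the domain of such a site reached a start was not tested. Among sites that far from a start, 53.2% of kept-partner, 41.8% of replaced and 24.4% of bare lost sites were marked. The 1008 sites fell in 897 domains with a median length of 14300 bp, against 9100 bp for all WT mESC H3K4me3 domains, and domains holding replaced sites had the same median length as those of kept-partner sites.

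**Figure D2:**
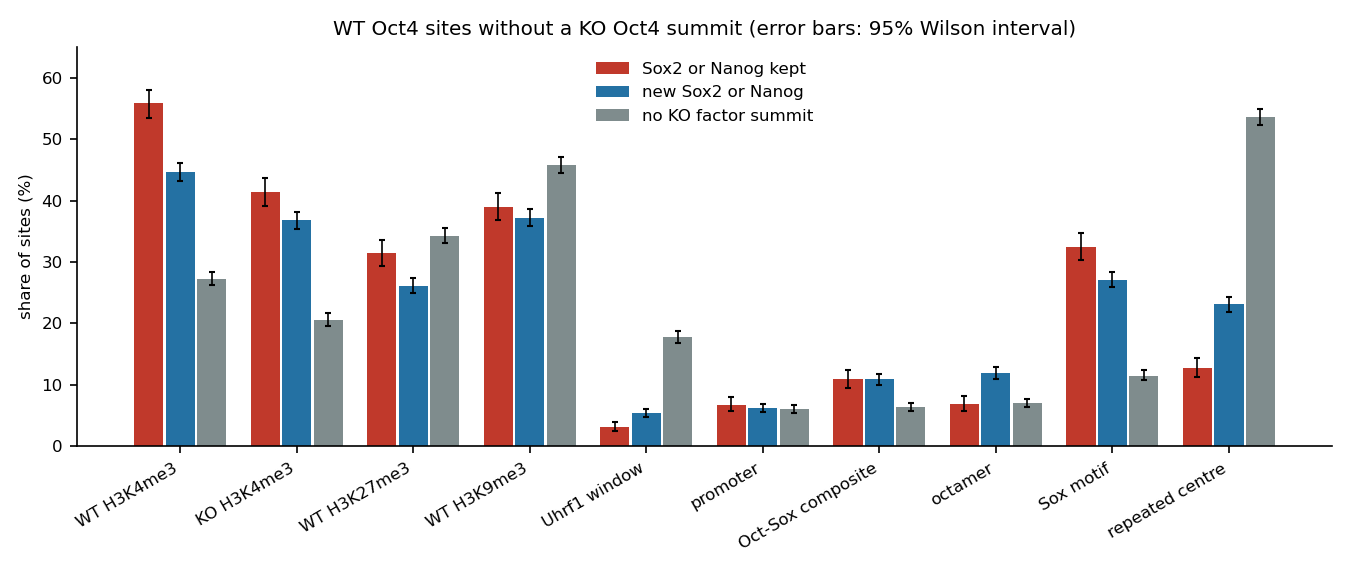
Share of kept-partner (red), replaced (blue) and bare lost (grey) WT Oct4 sites, in percent, that lay in each histone domain or Uhrf1 window, within 1000 bp of a gene start, held each motif or had a repeated centre, with 95% Wilson intervals. Kept-partner sites stand highest for WT H3K4me3 (55.8%) and the Sox motif (32.5%) and lowest for Uhrf1 windows (3.1%) and repeated centres (12.7%).

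In KO mESCs 41.4% of kept-partner sites lay in an H3K4me3 domain, against 36.8% of replaced sites (4.60 points, 1.96 to 7.27) and 20.6% of bare lost sites (20.8 points, 18.3 to 23.3). Among sites of similar Oct4 height these differences were 1.41 points (-1.42 to 4.24) and 11.3 points (7.73 to 14.9). Of the 1008 marked in WT, 302 lay outside every KO domain, a share of 30%. The background was 27.9% over all WT Oct4 sites in WT domains, and the share was 25.4% of replaced sites (difference 4.54 points, 1.19 to 7.97) and 30.3% of bare lost sites (-0.371 points, -3.91 to 3.24). The difference from replaced sites had an interval that held 0 when summits were matched within 500 bp (1.98 points, -1.04 to 5.06), with the taller summits of each list (1.39 points, -2.77 to 5.71) and with the higher-scoring domains (1.76 points, -2.13 to 5.78). Of the 798 kept-partner sites outside WT domains, 5.26% were inside a KO domain, against 3.94% over all WT Oct4 sites. The KO list held 11509 domains over 188 Mb and the WT list 15272 over 216 Mb, so that fewer marked sites and a shorter list went together.

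H3K4me3 and H3K27me3 domains overlapped at a part of these sites. The sites were not limited to promoters, and 88.9% of the H3K4me3-marked kept-partner sites lay over 1000 bp from a start. The classes also differed in H3K4me3 share by itself, and the part of this in the shares with both marks was not tested. In WT 14.3% (258) of kept-partner sites lay in both an H3K4me3 and an H3K27me3 domain, against 9.33% of replaced sites (4.96 points, 3.19 to 6.83) and 7.49% of bare lost sites (6.80 points, 5.12 to 8.60; 3.1 points, 0.506 to 5.69, at similar Oct4 height), and 41.5% lay in H3K4me3 domains alone. Of the 258, 48.1% were in H3K4me3 alone in KO, 31.4% in neither mark, 10.9% in H3K27me3 alone and 9.69% still in both. The shares were close to these at replaced sites (49.2%, 28.7%, 7.36% and 14.7%) and at bare lost sites (45.1%, 32.2%, 10.2% and 12.5%). Of the 750 with H3K4me3 alone, 73.6% stayed so, against 76.4% and 73.7% in those classes. H3K27me3 by itself covered 31.4% of kept-partner sites against 26.1% of replaced sites (5.34 points, 2.89 to 7.85) and 34.3% of bare lost sites (-2.87 points, -5.28 to -0.397), and within groups of similar Oct4 height the latter difference was -0.0142 points. With the taller summits of each list it turned to 5.63 points (2.27 to 9.06). In KO 83.6% of the 567 sites in WT H3K27me3 domains were outside every domain, against a background of 88.8%. The KO H3K27me3 list held 722 domains over 84.1 Mb where the WT list held 8161 over 959.7 Mb, which bears on every such loss.

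The H3K9me3 differences depended on the setting. WT H3K9me3 domains held 39.0% of kept-partner sites and 37.2% of replaced sites (1.78 points, -0.845 to 4.44), and 45.8% of bare lost sites (-6.81 points, -9.36 to -4.23), a difference that was -1.18 points (-4.82 to 2.46) among sites of similar Oct4 height. The difference from replaced sites was 5.59 points (2.17 to 9.03) with the taller summits of each list and 4.54 points (1.73 to 7.38) with 1-copy sites. Of the 704 kept-partner sites in WT domains, 20.6% were outside KO domains against a background of 20.8%, and of the 1102 outside WT domains 41.4% were inside KO domains against 34.7%. KO domains held 56.2% of kept-partner and 54.5% of replaced sites (1.66 points, -1.05 to 4.34), and 51.2% of bare lost sites (5.02 points, 2.41 to 7.61; 2.93 points, -0.785 to 6.65, at similar height). Against bare lost sites the sign was thus negative in WT and positive in KO, and the difference between the genotypes was not tested.

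Uhrf1 windows, 10 kb stretches enriched for Uhrf1 in WT mESCs, rarely held kept-partner sites. They held 56 of the 1806 (3.1%), against 5.32% of replaced sites (-2.22 points, -3.20 to -1.13) and 17.7% of bare lost sites (-14.6 points, -15.8 to -13.3). The contrast with bare lost sites was largest among low summits: in the lowest of 5 height groups (up to 25 reads) 6.35% of kept-partner and 29.9% of bare lost sites lay in a window, and in the tallest (58 reads and more) 3.14% and 3.22%.

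**Figure D3:**
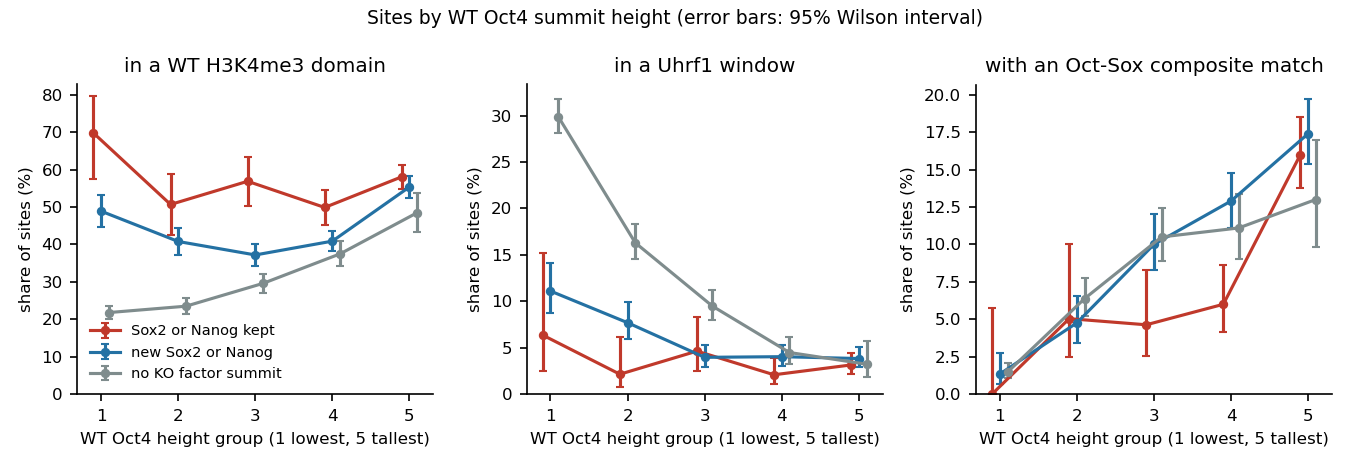
Share of sites in percent, by WT Oct4 height group from 1 (lowest) to 5 (tallest), for WT H3K4me3 domains, Uhrf1 windows and the Oct-Sox composite, with 95% Wilson intervals. Bare lost sites fall from 29.9% to 3.22% in Uhrf1 windows across groups, while kept-partner sites stay between 2.08% and 6.35%.

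Repeated sequence divided the classes in the same way. The central 31 bases had 2 or more exact copies in the assembled chromosomes at 12.7% (230 of 1805) of kept-partner sites, 23.1% of replaced sites (-10.4 points, -12.3 to -8.37) and 53.6% of bare lost sites (-40.9 points, -42.8 to -38.8). Within groups of similar Oct4 height the differences were -7.06 and -15.0 points. Reads were kept at a single position each, so a read from a repeat could lie at any of its copies. Among sites with 1 copy, Uhrf1 windows held 1.21% of kept-partner, 0.867% of replaced and 2.05% of bare lost sites, and among sites with more copies they held 16.1%, 20.2% and 32.2%. Restricted to sites with 1 copy, a comparison chosen after the data were seen, the H3K4me3 shares were 58.7%, 51.6% and 51.6% for kept-partner, replaced and bare lost sites. Kept-partner sites stayed the highest, by 7.12 points (lower bound 4.18) over replaced and 7.1 points (4.03 to 10.1) over bare lost sites. Kept-partner sites were then 36.1% (34.7 to 37.5) of the sites lost without replacement. The differences in KO mESC H3K4me3 share, in EB H3K4me3 share and in Sox motifs were not computed for sites with 1 copy, and the part of repeats in them was not tested.

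Kept-partner sites held Sox motifs more often than replaced and bare lost sites. The rule chose the classes by their Sox2 and Nanog summits: 1632 of the 1806 kept-partner sites had a KO Sox2 summit, and bare lost sites had none. The Sox motif and composite shares of the classes are therefore descriptions. A Sox motif lay within 50 bases of the summit at 32.5% of kept-partner sites, 27.1% of replaced sites (5.42 points, 2.94 to 7.96) and 11.5% of bare lost sites (21.1 points, 18.8 to 23.4), and at 15.3% of windows of the same length 1000 bp away from kept-partner sites. Within groups of similar Oct4 height the differences were 5.04 and 16.7 points. The octamer was less frequent than at replaced sites: 6.87% of kept-partner sites held it, against 11.9% of replaced sites (-5.0 points, -6.45 to -3.45) and 7.04% of bare lost sites (-0.171 points, -1.44 to 1.23). Among sites of similar height the differences were -7.11 and -6.97 points, and the windows 1000 bp away held the octamer at 0.720%. Over all 12697 WT Oct4 sites with sequence the shares were 20.3% for the Sox motif and 8.82% for the octamer. The composite, as at the Lefty1, Dppa3 and Tcf7 sites, was found at 10.9% of kept-partner sites, 10.9% of replaced sites and 6.32% of bare lost sites, and at 0.249% of windows 1000 bp away. Sites with a composite were taller, at a median WT Oct4 height of 76.5 against 57 without one, and among sites of similar height kept-partner sites held it 3.05 points less often than replaced sites (-3.05, -4.94 to -1.16) and at a difference of -0.471 points (-2.90 to 1.96) from bare lost sites. In 59.2% of kept-partner windows none of the 3 patterns was present.

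**Figure D4:**
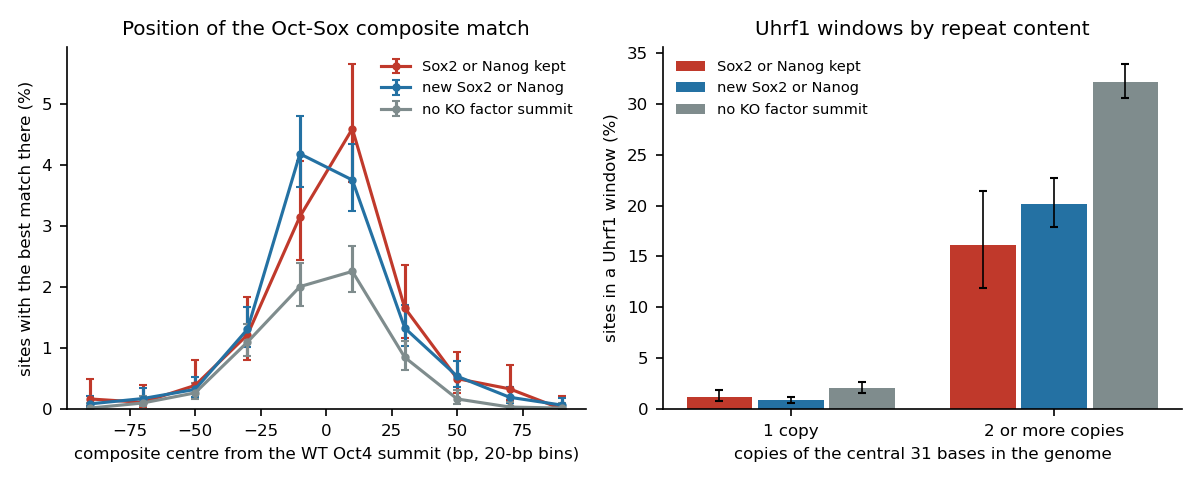
Left, share of sites in percent whose best Oct-Sox composite match (at most 2 mismatches) is centred in each 20-bp bin around the WT Oct4 summit. Right, share of sites in percent in a Uhrf1 window, split by whether their central 31 bases had 1 copy or more in the genome. Error bars are 95% Wilson intervals, the composite peaks within 20 bp of the summit in each class, and with 1 copy the Uhrf1 shares are 1.21%, 0.867% and 2.05%.

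By gene position, 59.5% of kept-partner sites were intergenic, 37.2% intronic and 3.27% exonic, with a median of 27442 bp to the nearest start. The median was 31865 bp for replaced and 51617 bp for bare lost sites. Introns held 34.8% of replaced sites (2.39 points, -0.207 to 5.02) and 28.2% of bare lost sites (9.06 points, 6.58 to 11.6). Sites within 1000 bp of a start were 6.76% of kept-partner, 6.17% of replaced (0.587 points, -0.706 to 2.00) and 6.03% of bare lost sites (0.734 points, -0.507 to 2.11), and among sites of similar Oct4 height the differences were 2.39 and 2.15 points with intervals above 0. With 1-copy sites only, the difference from bare lost sites turned to -3.56 points (-5.23 to -1.82). Chromosome 11 held 10.5% (9.19 to 12) of kept-partner sites and 7.69% of all WT Oct4 sites.

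The kinds of kept-partner site differed in where they lay. Of sites that kept Sox2 alone, 12.5% were within 1000 bp of a start, against 2.99% of those that kept both (9.53 points, 6.95 to 12.3) and 2.30% of those that kept Nanog alone (10.2 points, 6.11 to 13.2). The kinds were defined by their Sox2 and Nanog summits, so their motif shares are descriptions. Composite matches followed Sox2 as well, at 13.8% with Sox2 alone, 9.73% with both and 4.60% with Nanog alone, and so did Sox motifs, at 31.6%, 36.1% and 17.8%. H3K27me3 ran the other way, at 25.7% with Sox2 alone, 34.3% with both (-8.61 points, -13.0 to -4.13) and 40.2% with Nanog alone (-14.5 points, -22.6 to -6.81). WT H3K4me3 covered 58.7%, 55.4% and 46.0% of the 3 kinds, and the difference between Sox2 alone and both had an interval from -1.60 to 8.03 points.

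Genes of the pluripotency network were often the nearest to a kept-partner site. Of 22367 protein-coding genes, 1498 (6.70%) were nearest to at least 1, and 25 of 44 genes of a core and naive pluripotency list were (56.8%). These lists were drawn up with results of the series known, and genes of this list had Oct4 sites of other classes as well. Of the 44 genes, 33 were nearest to a replaced site, 21 to a bare lost site and 7 to a site that kept Oct4. Among all 22367 genes these counts were 3372, 3977 and 220, so nearness to Oct4 sites was not particular to the kept-partner class. At all 25 genes the tallest kept-partner site lay in a WT H3K4me3 domain, at 20 also in a KO domain, and at none in a Uhrf1 window. Over all kept-partner sites the shares were 55.8%, 41.4% and 3.1%, so none of 25 in a Uhrf1 window is near the background. All 25 kept Sox2, taller in KO at 22, and 22 kept Nanog, taller in KO at 17, where 77.8% of all shared Sox2 and 60.3% of all shared Nanog summits were taller.

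The tallest of them was 585 bp upstream of Rif1, which encodes a replication timing and telomere protein, with heights of 150 for WT Oct4, 175 and 207 for Sox2 in WT and KO, and 55 and 50 for Nanog. Sox2 itself had 3 kept-partner sites, the tallest 108079 bp downstream of its start, with Oct4 at 134, Sox2 at 56 in WT and 89 in KO and Nanog at 48 and 70. Klf2, a naive-state Krüppel-like factor, had 3, the tallest 2742 bp upstream, with Sox2 at 70 and 94. Zfp42 (Rex1), a naive-state marker, had Sox2 at 76 in WT and 73 in KO, so it did not follow the general increase. Jarid2, a cofactor of Polycomb repressive complex 2, had 5 sites, and at the tallest Sox2 went from 46 to 100 and Nanog from 38 to 70. Tdgf1, the Nodal co-receptor Cripto, had Sox2 at 48 and 87. Dppa3 (Stella), a maternal factor that protects DNA methylation in the zygote, had Sox2 at 52 and 110 beside its composite, and Rest, a repressor of neuronal genes, 53 and 73. At Klf4, a naive-state and reprogramming factor, the tallest site lay intergenic, 54932 bp past the start, with Sox2 at 51 and 73, and Fbxo15, a classical Oct4-Sox2 target, had Sox2 at 40 and 61.

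Signalling genes gave a like share, 17 of 27 matched genes of the FGF, TGF-beta, Wnt and Notch pathways (63.0% against 6.70%). Of the 27 genes, 13 were nearest to a replaced and 11 to a bare lost site. The tallest kept-partner site lay in a WT H3K4me3 domain at 16 of the 17 genes, in a KO domain at 13 and in a Uhrf1 window at 0. Over all kept-partner sites the shares were 55.8%, 41.4% and 3.1%, so 0 of 17 in a Uhrf1 window is near the background. The Nodal branch was represented by ligand and inhibitors. Nodal had Sox2 at 29 in WT and 48 in KO and Nanog at 23 and 13, Lefty1 had Sox2 at 57 and 75 without Nanog, and Lefty2 had Sox2 at 60 and 99 and Nanog at 34 and 40. Smad7, an intracellular inhibitor of TGF-beta signalling, had 5 kept-partner sites and 0 replaced sites, with Sox2 at 50 and 80 at the tallest. Id3, a BMP target, had Oct4 at 142, Sox2 at 69 and 108 and Nanog at 66 and 102. In the Wnt pathway, the repressor Tcf7l1 had Sox2 at 70 and 156, the ligand Wnt8a had Sox2 at 61 and 51, and the receptor Fzd7 and the inhibitor Axin2 kept Nanog alone, at 28 and 22 and at 65 and 61. The receptor Fgfr2 had the nearest start to a site in an intron of Ctbp2 with Sox2 at 54 and 107. Sox2 was taller in KO at 12 of the 14 genes of this list that kept it, near the 77.8% of all shared Sox2 summits.

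Smaller shares of developmental regulators and chromatin enzymes were nearest to a kept-partner site, against 6.70% of all genes. Of all 22367 protein-coding genes, 3372 were nearest to a replaced and 3977 to a bare lost site. Of all kept-partner sites, 31.4% lay in a WT H3K27me3, 55.8% in a WT H3K4me3 and 41.4% in a KO H3K4me3 domain. The mesoderm and endoderm list had 3 of 25 genes (12%): Foxa2, Eomes and Hand2, all 3 at sites inside WT H3K27me3 domains. In that list 10 genes were nearest to a replaced and 9 to a bare lost site. The neuroectoderm list had 5 of 22 (22.7%): Sall3, Hoxb1, Sall1, Meis1 and Pax6, with WT H3K27me3 at 4 of 5 tallest sites, WT H3K4me3 at 4 and KO H3K4me3 at 1. In that list 14 genes were nearest to a replaced and 15 to a bare lost site. The Meis1 site had 169 copies of its central bases and lay in a Uhrf1 window. At Eomes, a T-box factor of mesoderm and endoderm, Sox2 went from 46 to 115. The trophoblast list had 2 of 11 genes (18.2%), Tfap2c and Tead4, with 6 genes nearest to a replaced and 2 to a bare lost site. The 2-cell stage list had 0 of 12, with 1 nearest to a replaced and 4 to a bare lost site. Beside the 6.70% of all genes, 0 of 12 is near the background. Of the enzymes of DNA and histone methylation 8 of 24 (33.3%) were nearest to a kept-partner site: Setd1b, Ash2l and Kmt2a of the H3K4 methyltransferase complexes, Kdm5b, an H3K4 demethylase, Kdm3a and Ehmt1, which remove and add H3K9 methylation, Tet3, a 5-methylcytosine oxidase, and Dnmt3a, a de novo DNA methyltransferase. The Ash2l and Kmt2a sites lay 153 and 246 bp upstream of the start and kept Sox2 alone, at 27 and 30 and at 20 and 40. Setd1b had Oct4 at 132 with Sox2 at 41 and 66, and Dnmt3a kept Nanog alone at 24 and 29. Genes with the most kept-partner sites over all genes were Ebf1, Jarid2, Smad7 and Tex14, with 5 each.

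When the cells differentiated, H3K4me3 at kept-partner sites fell and then returned. In WT it covered 55.8% of the sites in mESCs, 23.4% in week 1 EBs, 39.7% in week 2 and 47.8% in week 3, and in KO 41.4%, 14.8%, 48.9% and 52.9%. The KO share was thus below WT in mESCs and week 1 and above it in weeks 2 and 3. All WT Oct4 sites showed the same fall, return and crossing, at 38%, 17.4%, 28.6% and 32.8% in WT and 29.8%, 11.2%, 34.1% and 36.5% in KO, so the course was not particular to kept-partner sites. Kept-partner sites stood above replaced and bare lost sites in each of these lists: in WT week 1 by 4.86 points over replaced sites (2.65 to 7.15) and 9.02 over bare lost sites (6.93 to 11.2), and in KO week 3 by 8.73 points (6.02 to 11.4) and 28.0 points (25.4 to 30.5). Among sites of similar Oct4 height the differences were 5.92 and 5.54 points in WT week 1, and 4.27 and 15.3 points in KO week 3. The part of repeated sequence, more frequent at bare lost sites, was not tested here. The lists differed in extent, with 107, 206 and 162 Mb in WT and 73.4, 154 and 166 Mb in KO for weeks 1 to 3, and the extent of a list moves every share taken from it. Against the 244 sites that kept Oct4, kept-partner sites were higher in WT mESCs (by 7.45 points, 0.796 to 14.1) and lower in WT EBs of week 2 (-13.2 points, -19.7 to -6.51) and week 3 (-12.5 points, -18.8 to -5.80). In KO the difference was -0.796 points (-7.46 to 5.65) in mESCs, -12.6 points (-18.7 to -7.13) in week 1, -14.6 points in week 2 and -11.5 points in week 3. The differences from the 244 sites were not computed within height groups, although the median WT Oct4 height was 60 at kept-partner sites and 97.5 at the 244.

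**Figure D5:**
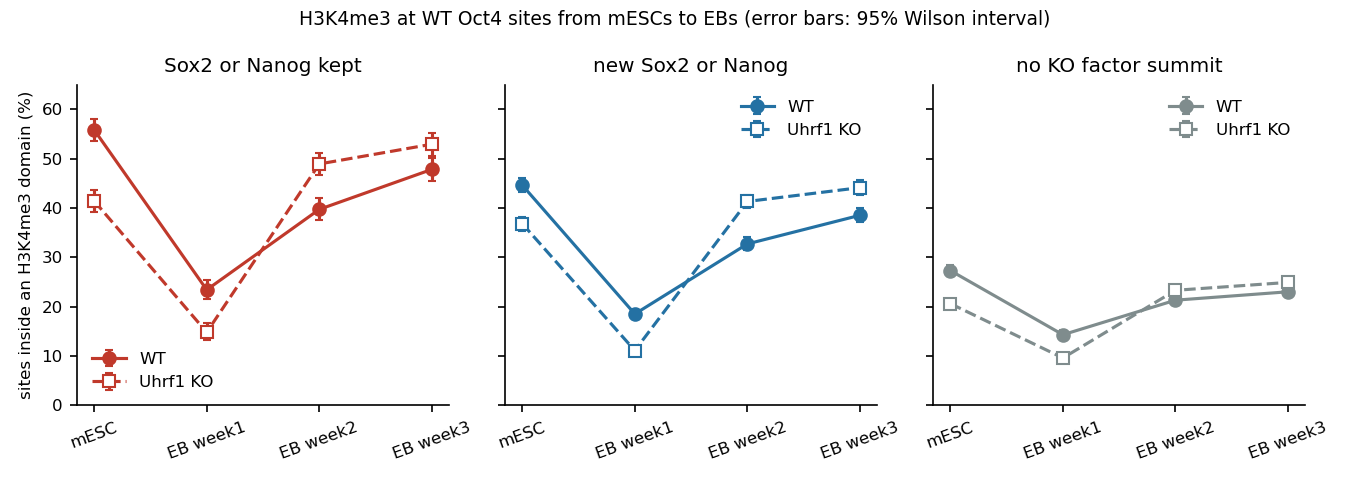
Share of sites in percent inside an H3K4me3 domain in mESCs and in EBs at weeks 1 to 3, WT (filled, solid line) and Uhrf1 KO (open, dashed), for the 3 classes of site, with 95% Wilson intervals and 1 library per point. At kept-partner sites the KO share is 14.8% against 23.4% in week 1 and 48.9% against 39.7% in week 2.

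Of kept-partner sites in WT domains, 43.1% lay outside KO domains in week 1 (background over all WT Oct4 sites 40.6%), 13.9% in week 2 (14.6%) and 7.65% in week 3 (8.70%). Of those outside WT domains, 2.02% were inside KO domains in week 1 (background 1.09%), 24.4% in week 2 (13.6%) and 16.8% in week 3 (9.82%). The week 2 gain was 4.98 points (2.14 to 7.94) above that of replaced sites and 17.6 points (15.1 to 20.3) above that of bare lost sites. Among sites of similar Oct4 height the former was -0.605 points (-3.79 to 2.58) and the latter 9.19 points (5.36 to 13.0).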

How the data were processed

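ChIP-seq lists of 25 samples (33 with the 8 inputs, not used here) were taken as deposited. The authors aligned reads to mm9 with Bowtie2 2.1.0, keeping 1 alignment per read, per the labels and methods. MACS gave the factor summits, whose deposited signal (height) is the number of reads piled there, unscaled for depth. Histone domains were called against input with RSEG, for each of which the authors deposited a signal, the mean count in its bins, and a score larger for longer domains, used here only to rank domains of a list. Uhrf1 windows of 10 kb were deposited without a value. The deposited lists carry no read totals, and totals given with the study were not used here.

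Groups were the labelled combinations of genotype, stage and target. Summits matched within 100 bp, the distance in the study's methods, and a site was in a domain when its summit base was. Genes were the 22367 protein-coding genes of the GENCODE annotation of NCBIM37, and sequence came from that assembly. Of the 12898 sites, 12697 had sequence. Copies of the central 31 bases were exact matches on both strands of the assembled chromosomes. Shares have Wilson and differences Newcombe 95% intervals. Differences within 5 groups of WT Oct4 height were weighted by the number of kept-partner sites, with a normal interval. Each group having 1 library, no test over replicates was made and no p-value is printed. Python 3.11, numpy 2.4.6 and pysam 0.24.0 were used, and the scripts recovered planted classes, motifs and copies in simulated data.

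The rule of membership, the gene lists, the tests and the named items were chosen with earlier results of these data known. Named sites were the 3 tallest of each kind, leaving out chromosome 18 (2 of these sites are not reported here), and up to 10 genes per list in order of their tallest site. The 4 exact composites and the printed composites of listed genes were chosen after their values were seen. Alternatives were summit distances of 500 and 1000 bp, taller summits, equal lists, height groups, 1 site per cluster, stronger domains and wider or stricter windows and motifs, and, added later, sites with 1 copy.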

Additional observations from a re-analysis of the deposited data

How the results depend on the processing

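With 1 library per group, no setting changes the lack of a replicate check. Read totals were not analysed here, and the part of depth in the short KO Oct4 and H3K27me3 lists was not tested. No paired analysis was possible because each group holds 1 library and no result comes from a test between replicates. Of 106 alternative values for 15 results, 69 counted as unchanged. That meant an interval on the same side of 0, intervals that both held 0, or a share inside the main interval. Where both intervals held 0 the sign could differ. Sites that left H3K4me3 domains, against bare lost sites, went from -0.371 to 2.20 points with 1-copy sites and counted as unchanged. Both differences in WT H3K4me3 share had intervals above 0 under every setting run for them. Kept-partner sites were 22.6% of the sites lost without replacement, 29.0% at 500 bp, 31.8% at 1000 bp, 31.9% with the taller summits of each list, 16.4% with the KO Sox2 and Nanog lists shortened to the WT number and 36.1% with 1-copy sites. The 1-copy settings were chosen after seeing the data. In points against bare lost sites, sites that left H3K4me3 domains differed by -6.49 at 500 bp. The H3K27me3 share differed by 5.63 (2.27 to 9.06) with taller summits, -0.0142 within height groups, 1.68 with 1-copy sites and -1.36 with both of the last, and the H3K9me3 share by 1.63, -1.18, 1.53 and 1.22 in the same order. The Uhrf1 share differed by 0.342 with 1-copy sites in height groups. The promoter share differed by 5.63 at 500 bp, 2.15 within height groups, 5.62 with promoters of 5000 bp and -3.56 with 1-copy sites, and the composite share by 1.86 with taller summits, -0.471 within height groups and 1.28 with 1-copy sites in height groups. In points against replaced sites, sites that left H3K4me3 domains differed by 1.98 at 500 bp, 1.39 with taller summits and 1.76 with higher-scoring domains. The H3K9me3 share differed by 5.59 with taller summits, 4.54 with 1-copy sites and 3.33 with those in height groups, and the Uhrf1 share by -0.143, 0.339 and 0.411 in that order. The promoter share differed by 3.70 at 500 bp, 1.67 with taller summits, 2.39 within height groups and 1.70 with 1-copy sites in height groups, and the composite share by -3.05 and -3.90 in the last pair of settings. The causes were not tested.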

Other observations

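Base composition separated the classes less than repeats did. At least 1 CpG, the dinucleotide whose methylation Uhrf1 helps to maintain, lay within 50 bases of the summit at 62.0% of kept-partner sites, 62.5% of replaced sites (-0.522 points, -3.17 to 2.1) and 78.4% of bare lost sites (-16.4 points, -18.9 to -13.9). The difference from bare lost sites was -5.58 points (-9.17 to -1.99) within groups of similar Oct4 height. The median GC content of the windows was 48.5%, 47.5% and 52.5% in the same order.

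Compared with the 244 sites that kept Oct4, kept-partner sites held the Sox motif more often (32.5% against 19.2%, 13.3 points, 7.37 to 18.3) and lay less often in Uhrf1 windows (-6.74 points, -11.2 to -3.47) and at repeated centres (-24.0 points, -30.5 to -17.9). The rule asked for a Sox2 or Nanog summit at kept-partner sites and not at the 244, so the motif shares are descriptions. None of these differences was computed within height groups. The X chromosome held 2.60% (1.96 to 3.44) of kept-partner sites and 3.92% of all WT Oct4 sites, and chromosome 14 held 2.93% (2.25 to 3.82) and 4.76%. No test was made on these chromosome shares.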
